A study of Mus musculus with 5 samples.

Results

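Alpha and delta cell genes other than hormones were followed in fluorescent beta cells sorted from mouse islets, to set the islet hormones beside other genes of the cells that make them. The set was chosen by name and holds 7 of the 23951 genes in the table. The alpha cell genes are Irx1, Irx2, Gc, Ttr and Tmem27, and the delta cell genes are Hhex and Rbp4. The p16 group held 3 samples from mice with the Ins-rtTA, tet-GFP and tet-p16ink4a transgenes, and the GFP group held 2 samples from control mice with Ins-rtTA and tet-GFP alone. All 5 samples came from mice given tetracycline for 10 days, and GFP-positive cells were isolated from dissociated islets by fluorescence-activated sorting, so both groups carried the driver, the fluorescent protein and the drug. By its name the driver places the tetracycline-responsive activator under an insulin promoter, so the sort was meant to keep beta cells. The labels give no strain, sex or age. The authors' values are 1 FPKM (fragments scaled to transcript length and library size) per gene and group, with no value per sample, so library depth and the variation among mice are unknown and no SD can be given.

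Islets hold insulin-making beta cells beside alpha cells, which make glucagon, delta cells, which make somatostatin, and PP cells, which make pancreatic polypeptide. Each type is kept by its own transcription factors, among them the Iroquois factors in alpha cells and HHEX in delta cells. Several secreted or membrane proteins are also enriched in 1 type, though they are less strict as markers: transthyretin and collectrin, the products of Ttr and Tmem27, are made by mouse beta cells too. In bulk RNA, more cells of a type and more RNA per cell cannot be told apart.

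Rbp4 rose with p16, and no other gene of the set passed in either direction. All 7 genes had been tested by the authors, and a gene was called at a q-value below 0.05 in the authors' deposited table. Of the 7 genes, 1 was called higher and 0 lower, beside 5.42% of the 13264 genes tested, 4.32% called higher and 1.10% called lower. By value alone, 5 of the 7 genes stood higher in the p16 group, beside 48.4% of all tested genes. The median log2 ratio of FPKM, p16 over GFP, of the 7 genes was 0.43, the value of Gc, beside -0.02 over all tested genes. The genes span a wide range of abundance, from Irx1 at 0.381 FPKM in the p16 group and 0.132 FPKM in the GFP group to Tmem27 at 852.2 FPKM in the p16 group and 1040 FPKM in the GFP group. Tmem27 and Ttr together made up 90.4% of the summed FPKM of the set in the p16 group, against 95.0% in the GFP group. In both groups the order of levels was Tmem27, Ttr, Rbp4, Gc, Hhex, Irx2 and Irx1, and without values per sample no neighbours in that order can be tested.

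**Figure D1:**
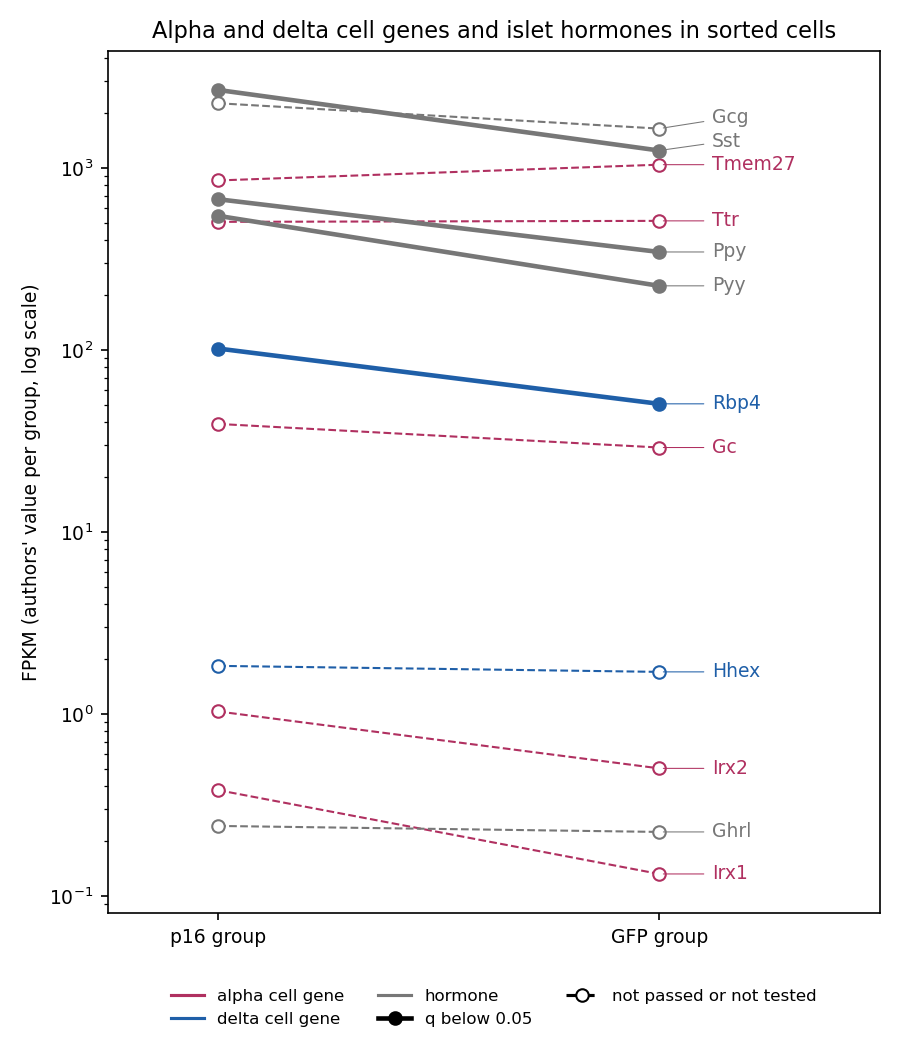
FPKM of the 7 alpha and delta cell genes and of 5 islet hormones in the p16 group and the GFP group, on a log axis, with 1 value per group. Filled symbols and thick lines mark a q-value below 0.05 in the authors' deposited table, which Rbp4 shares with Sst, Ppy and Pyy; dashed lines mark genes that did not pass or were not tested.

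Irx1 and Irx2 encode Iroquois homeodomain transcription factors of alpha cells and lie on chromosome 13 in the mm9 build, at 72095680 to 72101171 and at 72766426 to 72771642. Irx2 missed the threshold, at 1.03 FPKM in the p16 group, against 0.501 FPKM in the GFP group (log2 ratio 1.04, p = 0.0445, q = 0.276 in the authors' deposited table). Irx1 stood at 0.381 FPKM in the p16 group, against 0.132 FPKM in the GFP group, with the largest log2 ratio of the set at 1.53, and did not pass either (q = 0.326 in the authors' deposited table). Both lie at the lower end of the tested genes, with 1.69% of tested genes at or below Irx1 in the p16 group, against 1.23% in the GFP group. At that level the table leans upward. Among the 500 tested genes nearest to Irx1 in mean FPKM the median log2 ratio was 0.59, 48 were called, 45 of them higher, and the smallest log2 ratio called had a size of 1.56. Around Irx2 the median log2 ratio was 0.17, and the smallest size called was 1.23. A ratio as large as that of Irx1 or Irx2 was therefore below what was called in genes of like level. The other 4 Iroquois genes were not tested. Irx3 stood at 0.0259 FPKM in the p16 group and 0.0175 FPKM in the GFP group, Irx5 was listed at 0.0530 FPKM in the p16 group and at 0 in the GFP group, and Irx4 and Irx6 were listed at 0 in both.

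Gc, Ttr and Tmem27 encode abundant proteins outside the nucleus, and none of them passed in either direction. Gc encodes the vitamin D-binding protein, a secreted carrier, and lies on chromosome 5 at 89846536 to 89886923. It stood at 39.2 FPKM in the p16 group, against 29.0 FPKM in the GFP group (log2 ratio 0.43, q = 0.474 in the authors' deposited table). Ttr encodes transthyretin, the carrier of thyroxine and of the retinol-binding protein, and lies on chromosome 18 at 20823751 to 20832827. It stood at 504.7 FPKM in the p16 group, against 511.1 FPKM in the GFP group (log2 ratio -0.02, q = 0.986 in the authors' deposited table). That ratio turned to 0.06 when both groups were scaled to their total without genes over 1000 FPKM. Tmem27 encodes collectrin, a membrane glycoprotein, and lies on chromosome X at 160528119 to 160556791. It stood at 852.2 FPKM in the p16 group, against 1040 FPKM in the GFP group (log2 ratio -0.29, q = 0.690 in the authors' deposited table). Ttr ranked 80 among 13264 tested genes in the p16 group, against 101 in the GFP group, and Tmem27 ranked 35 and 31 in the same groups. In bulk RNA these levels cannot be assigned to alpha or beta cells. Among the 500 tested genes nearest in mean FPKM, the smallest size of log2 ratio called was 0.85 around Gc and 0.96 around Ttr and around Tmem27.

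The delta cell genes lie on chromosome 19, 675.9 kb apart, and gave different values. Rbp4, at 38191110 to 38199811, encodes the plasma retinol-binding protein that carries vitamin A, and in mouse islets it is enriched in delta cells. It rose to 101.6 FPKM in the p16 group, against 50.5 FPKM in the GFP group, or 2.01-fold (log2 ratio 1.01, p = 0.0002, q = 0.00752 in the authors' deposited table). Hhex, at 37509331 to 37515221, encodes the homeodomain factor required for delta cells in mice. It did not pass, at 1.83 FPKM in the p16 group, against 1.699 FPKM in the GFP group (log2 ratio 0.11, q = 0.945 in the authors' deposited table). Rbp4 was 55.4 times as abundant as Hhex in the p16 group, against 29.7 times in the GFP group, and the log2 ratio of Rbp4 exceeded that of Hhex by 0.90, a difference that was not tested. At the level of Hhex the smallest size of log2 ratio called among the 500 nearest genes was 1.05, and 35 of those genes were called. At the level of Rbp4 that size was 0.82, and 17 of the 500 nearest genes were called, 10 of them higher.

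The upstream windows of Rbp4 and Hhex are set side by side because Rbp4 was called and Hhex was not. Each run is the 250 bases upstream of a RefSeq start, taken from RefSeq on the GRCm38.p6 build, which is not the mm9 build of the table, and written along the gene's own strand. Capitals mark TATAAA, the core of the TATA box. Rbp4 is on the minus strand and has 2 RefSeq starts, of which the downstream one is shown, at chr19:38124812-38125061, and Hhex is on the plus strand, at chr19:37434591-37434840.
Rbp4: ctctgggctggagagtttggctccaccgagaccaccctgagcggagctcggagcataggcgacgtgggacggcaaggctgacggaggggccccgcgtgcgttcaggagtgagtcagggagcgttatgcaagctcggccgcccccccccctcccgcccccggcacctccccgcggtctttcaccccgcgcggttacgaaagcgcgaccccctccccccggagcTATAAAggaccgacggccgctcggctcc
Hhex: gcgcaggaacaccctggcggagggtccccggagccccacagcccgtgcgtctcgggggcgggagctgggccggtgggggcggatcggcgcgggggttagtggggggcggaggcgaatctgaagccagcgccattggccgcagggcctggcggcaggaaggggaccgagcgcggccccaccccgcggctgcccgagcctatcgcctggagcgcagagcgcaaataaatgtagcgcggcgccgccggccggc
In Rbp4, TATAAA begins 28 bases before the start. It occurs, on either strand, in 12.3% of 32536 distinct mouse windows of the same length, and its letters are not in the Hhex window. Both windows are rich in G and C, at 70.8% in Rbp4 and 76.0% in Hhex. TATAAA was not in the windows of Irx2, Gc, the other Rbp4 start or the Tmem27 starts either, on either strand. Only the exact letters TATAAA were searched, so variants of the TATA box, in the Hhex window or elsewhere, were not looked for. A match of letters is a description and shows no binding.

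No gene of the set overlaps another gene in the table by its coordinates; how reads were assigned was not examined. Within 20 kb of Rbp4 lie Ffar4, a fatty acid receptor gene that mouse delta cells express, and Pde6c, a photoreceptor phosphodiesterase gene. Ffar4 stood at 14.9 FPKM in the p16 group, against 7.52 FPKM in the GFP group, short of the threshold (q = 0.0591 in the authors' deposited table). Pde6c was near 0 and not tested. The tested genes closest to Rbp4 in log2 ratio and mean FPKM, over these 2 group values, were the amino acid transporter gene Slc7a5 at a distance of 0.0799 log2 units and the transcription factor gene Ets2 at 0.124 log2 units.

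**Figure D2:**
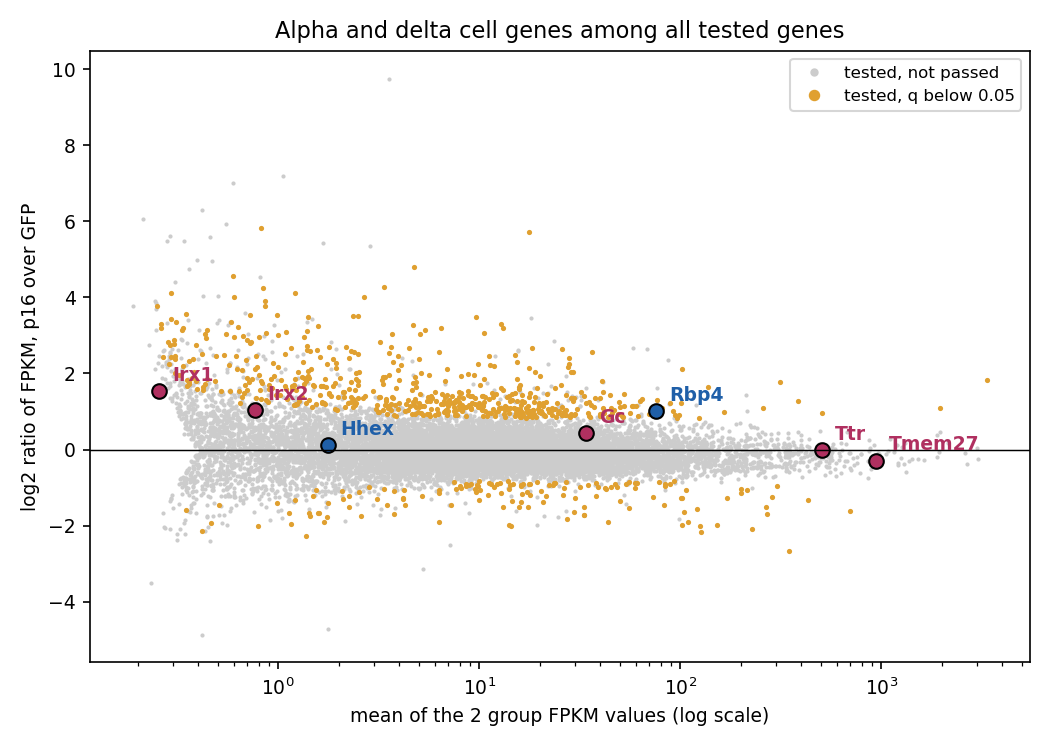
Log2 ratio of FPKM, p16 over GFP, against the mean of the group FPKM values on a log axis, for the tested genes with a ratio and a known transcript GC content. Large points are the alpha and delta cell genes; Rbp4 lies among the genes with a q-value below 0.05, while Irx1 and Irx2 lie at low FPKM, where ratios of that size mostly did not pass.

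Most tested hormone genes of the other islet cells rose with p16. Of 5 hormone genes 4 were tested, 3 were called higher and 0 lower, beside the 4.32% and 1.10% of all tested genes, and their median log2 ratio was 1.03. Sst, which encodes somatostatin, rose to 2678 FPKM in the p16 group, against 1244 FPKM in the GFP group (log2 ratio 1.11, q = 0.00597 in the authors' deposited table). Gcg, which encodes glucagon, stood at 2263 FPKM in the p16 group, against 1642 FPKM in the GFP group, and did not pass (log2 ratio 0.46, q = 0.497 in the authors' deposited table). The related peptide genes Ppy and Pyy rose with log2 ratios of 0.96 and 1.28 (q = 0.0343 and 0.00245 in the authors' deposited table). Ghrl, the ghrelin gene, stood at 0.242 FPKM in the p16 group and 0.224 FPKM in the GFP group and was not tested.

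The genes were also set against the hormone of the cell type they were listed under. These ratios are quotients of FPKM within a group and carry no test. Per 1000 FPKM of Sst, Rbp4 stood at 37.9 FPKM in the p16 group and 40.6 FPKM in the GFP group, so Rbp4 and Sst kept nearly the same proportion. Hhex stood at 0.685 FPKM per 1000 FPKM of Sst in the p16 group and 1.37 FPKM in the GFP group, a log2 difference from Sst of -0.996. Per 1000 FPKM of Gcg, Gc stood at 17.3 FPKM in the p16 group and 17.7 FPKM in the GFP group. Ttr stood at 223.0 FPKM per 1000 FPKM of Gcg in the p16 group and 311.2 FPKM in the GFP group, and Tmem27 at 376.5 FPKM and 633.5 FPKM in the same groups. Irx1 and Irx2 stood higher in the p16 group on this scale, at 0.168 and 0.455 FPKM per 1000 FPKM of Gcg in the p16 group and 0.0803 and 0.305 FPKM in the GFP group. The genes listed for alpha cells thus lay on both sides of Gcg, by -0.75 for Tmem27 to 1.07 for Irx1 on the log2 scale. Ttr and Tmem27 are made by mouse beta cells too, and their RNA here cannot be assigned to either type. Their quotients over Gcg therefore need not describe alpha cells. With 0.1 FPKM added, the log2 ratios of Irx1 and Irx2 were 1.05 and 0.91, above the 0.46 of Gcg. With 1 FPKM added, they were 0.29 and 0.44, below the 0.46 of Gcg. An added constant shrinks the ratios of low genes by its nature. The place of Irx1 and Irx2 above Gcg therefore depended on how much was added. Whether cell numbers or levels per cell lie behind the hormone values was not tested.

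**Figure D3:**
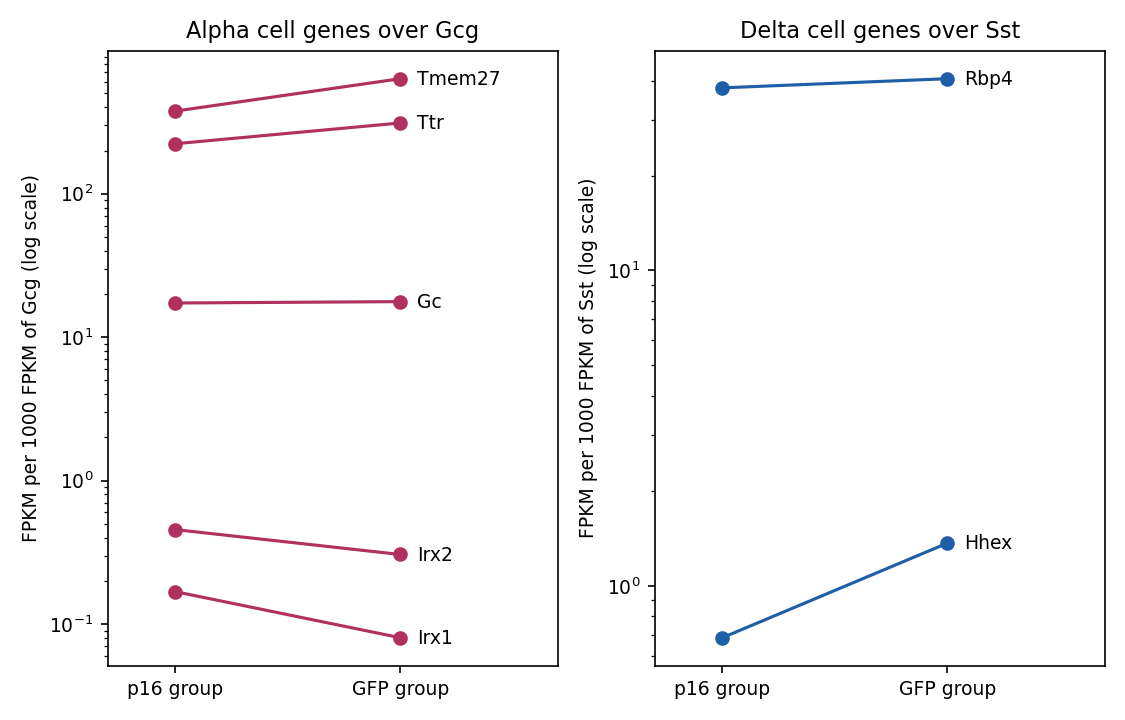
FPKM of each alpha cell gene per 1000 FPKM of Gcg and of each delta cell gene per 1000 FPKM of Sst, in the p16 group and the GFP group, on log axes. The lines of Gc and Rbp4 are nearly flat, those of Tmem27, Ttr and Hhex are lower in the p16 group, and those of Irx1 and Irx2 are higher in the p16 group. Tmem27 and Ttr are made by mouse beta cells too.

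Other genes of alpha and delta cells gave a mixed picture. Of 10 further alpha cell genes 9 were tested, with 1 called higher and 0 lower beside the 4.32% and 1.10% of all tested genes, and a median log2 ratio of 0.48. The rest lay on both sides of no difference, and of the 9 tested, 4 had the lower value in the p16 group, the protease gene Dpp4 among them at 15.96 FPKM in the p16 group and 26.1 FPKM in the GFP group (q = 0.102 in the authors' deposited table). Of 6 further delta cell genes 3 were tested and 0 called, beside 5.42% of all tested genes, with a median log2 ratio of -0.01 over the 3 tested. Lepr, Crhr2 and Nrn1, not tested, had log2 ratios of 0.46, 1.04 and 0.81. The levels of the 6 genes ran from 0.0620 to 0.989 FPKM in the p16 group and from 0.0355 to 1.06 FPKM in the GFP group. Around Irx2, at a like level, the smallest size of log2 ratio called was 1.23, above the 1.11 of Sst. These genes therefore say little on a change of that size. The ghrelin receptor gene Ghsr stood at 0.567 FPKM in the p16 group, against 0.378 FPKM in the GFP group (q = 0.557 in the authors' deposited table). Prg4, the most abundant of the 3 tested, stood at 0.989 FPKM in the p16 group, against 1.06 FPKM in the GFP group (q = 0.989 in the authors' deposited table).

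**Figure D4:**
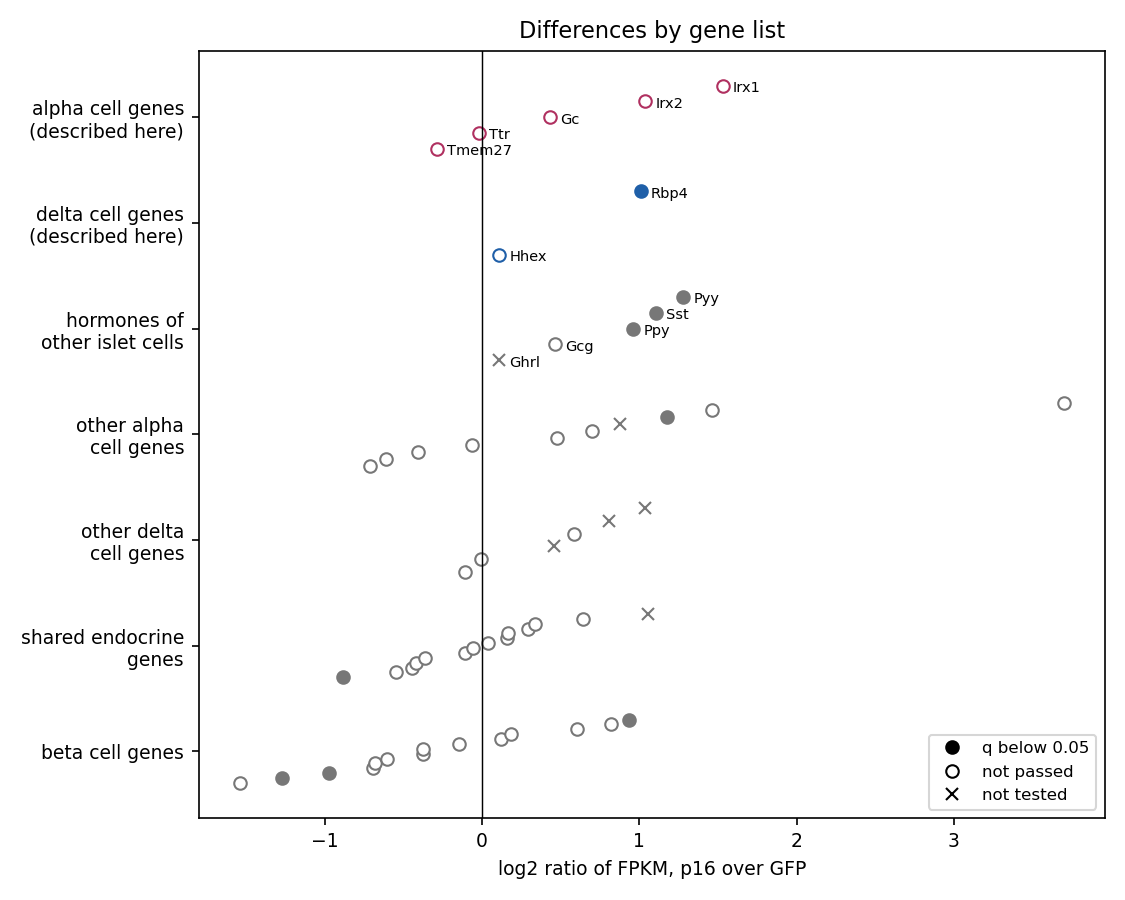
Log2 ratio of FPKM, p16 over GFP, of each listed gene with a value above 0 in both groups, by gene list; filled points had a q-value below 0.05 in the authors' deposited table, open points did not pass and crosses were not tested. Rbp4 at 1.01 is the filled point among the described alpha and delta cell genes, and the points of the set and of the hormones carry names.

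Genes of all islet endocrine cells and of beta cells were checked in the same table. Of 15 genes shared by islet cell types 13 were tested, 0 were called higher and 1 lower, beside the 4.32% and 1.10% of all tested genes, with a median log2 ratio of -0.05. That gene was Isl1, an endocrine LIM homeodomain factor gene, which fell to 41.7 FPKM in the p16 group, against 76.8 FPKM in the GFP group (q = 0.0257 in the authors' deposited table). Of 17 beta cell genes 14 were tested, 1 was called higher and 2 lower, beside the 4.32% and 1.10% of all tested genes, with a median log2 ratio of -0.37. The glucose transporter gene Slc2a2 and the cation channel gene Trpm5 fell, with log2 ratios of -0.97 and -1.27 (q = 0.0242 and 0.00245 in the authors' deposited table). The defining beta cell genes Ins1, Ins2 and Iapp were at 0 in the p16 group and the GFP group and carried the status for loci with too much data, so they check nothing. Other beta cell markers were high, with G6pc2, an islet phosphatase subunit gene, at 2327 FPKM in the p16 group and 3012 FPKM in the GFP group.

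The set was also placed among genes that share its biochemistry. Retinol-binding protein travels in plasma bound to transthyretin, and FPKM of Ttr was 4.97 times that of Rbp4 in the p16 group, against 10.1 times in the GFP group. Of 23 retinoid carriers, enzymes and receptors, Rbp4 and Ttr included, 12 were tested, 3 were called higher and 0 lower, beside the 4.32% and 1.10% of all tested genes, with a median log2 ratio of 0.68. Beside Rbp4, the retinaldehyde dehydrogenase gene Aldh1a3 rose to 3.75 FPKM in the p16 group, against 0.581 FPKM in the GFP group (q = 0.00245 in the authors' deposited table). Rbp3, an interphotoreceptor retinoid-binding protein gene, rose to 1.17 FPKM in the p16 group, against 0.467 FPKM in the GFP group (q = 0.0343 in the authors' deposited table). The retinol-binding protein receptor gene Stra6 was not tested and was listed at 0 in the p16 group and 0.00666 FPKM in the GFP group.

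Gc, Ttr and Rbp4 are also plasma protein genes of the liver. Of 17 such genes 16 were in the table and 10 were tested, with 2 called higher, Rbp4 and Clu, and 0 lower, beside the 4.32% and 1.10% of all tested genes, and a median log2 ratio of 0.60. Clu, which encodes the extracellular chaperone clusterin, rose to 157.8 FPKM in the p16 group, against 88.8 FPKM in the GFP group (q = 0.0357 in the authors' deposited table). The albumin gene Alb was low, at 0.627 FPKM in the p16 group and 0.351 FPKM in the GFP group (q = 0.467 in the authors' deposited table). Among 6 genes of brush border enzymes and amino acid transporters, Tmem27 included, 4 were tested and 1 was called higher, beside 4.32% of all tested genes, with a median log2 ratio of -0.01. That gene was Slc6a20a, at 2.24 FPKM in the p16 group and 0.603 FPKM in the GFP group (q = 0.0142 in the authors' deposited table).

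Markers of cells outside the endocrine islet were measured beside the set, and their part in the result was not tested. Over all tested genes, 4.32% were called higher and 1.10% lower. Of 15 acinar genes 13 were tested and 0 called, with a summed level of 28.3 FPKM in the p16 group and 26.1 FPKM in the GFP group, and Amy2a5 at 0 in both; the most abundant, Ctrb1, stood at 6.20 FPKM in the p16 group and 6.58 FPKM in the GFP group (q = 0.958 in the authors' deposited table). Of 8 duct genes 7 were tested, with 3 called higher, Cldn4, Spp1 and Sox9, and Krt19 called lower. The list summed to 668.5 FPKM in the p16 group and 295.1 FPKM in the GFP group, and 2 genes held most of that. Cldn4 stood at 486.5 FPKM in the p16 group and 143.3 FPKM in the GFP group. Krt7, which did not pass, stood at 151.5 FPKM in the p16 group and 134.0 FPKM in the GFP group. Cftr was near 0, at 0.0851 FPKM in the p16 group and 0.0447 FPKM in the GFP group. Of 8 immune genes 4 were tested, 2 with the higher and 2 with the lower value in the p16 group. Cd68 was called higher, at 1.95 FPKM in the p16 group and 0.229 FPKM in the GFP group. The list summed to 10.3 FPKM in the p16 group and 10.1 FPKM in the GFP group. Most of both sums was Cd79a, which did not pass, at 5.50 FPKM in the p16 group and 7.41 FPKM in the GFP group. The near equal sums therefore say little on the other immune genes. Cd3e was at 0 in both groups. None of 6 endothelial genes was tested, and they summed to 0.569 FPKM in the p16 group and 0.539 FPKM in the GFP group. Of 8 stellate cell and fibroblast genes 2 were tested, and both, Col1a2 and Dcn, were called higher. The list summed to 4.87 FPKM in the p16 group and 0.584 FPKM in the GFP group. Most of the sum in the p16 group was Dcn and Col1a2, at 2.29 and 1.60 FPKM. Of the 6 genes not tested, all near 0, Acta2 and Lum had the lower value in the p16 group and the rest the higher.

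The log2 ratios of the set ran with the GC content of the transcripts, as they did over the whole table. Irx1, Irx2 and Rbp4 lie in the highest of 5 equal bins of tested genes by GC content, at 61.7%, 56.8% and 55.6%, and so do Sst, Ppy and Pyy. In that bin the median log2 ratio of all genes was 0.31, and 8.34% were called higher and 0.533% lower. Hhex, at 51.7%, lies in the next bin, where the median was 0.11. Gc and Ttr, at 45.9% and 46.5%, share the next to lowest bin with Gcg, where the median was -0.19. Tmem27, at 40.7%, lies in the lowest bin, where the median was -0.32, and 1.60% were called higher and 2.97% lower. Less the median of its bin, the log2 ratio was 0.70 for Rbp4 and 0.80 for Sst, 0.62 for Gc and 0.65 for Gcg, and 0.03 for Tmem27 and 0.00 for Hhex. Rbp4 and Sst share a bin, as do Gc and Gcg, so this step leaves the difference within each pair as it was. Rbp4, at 55.56%, lies just above the lower edge of its bin at 55.53%, and Hhex, at 51.69%, just above that of its bin at 51.55%. Their values less the median therefore depend on where the bins were cut. Ttr, in the bin of Gcg, lay 0.17 above its median, and Hhex and Tmem27 lay at or near theirs. The part of GC content in these differences was not tested.

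**Figure D5:**
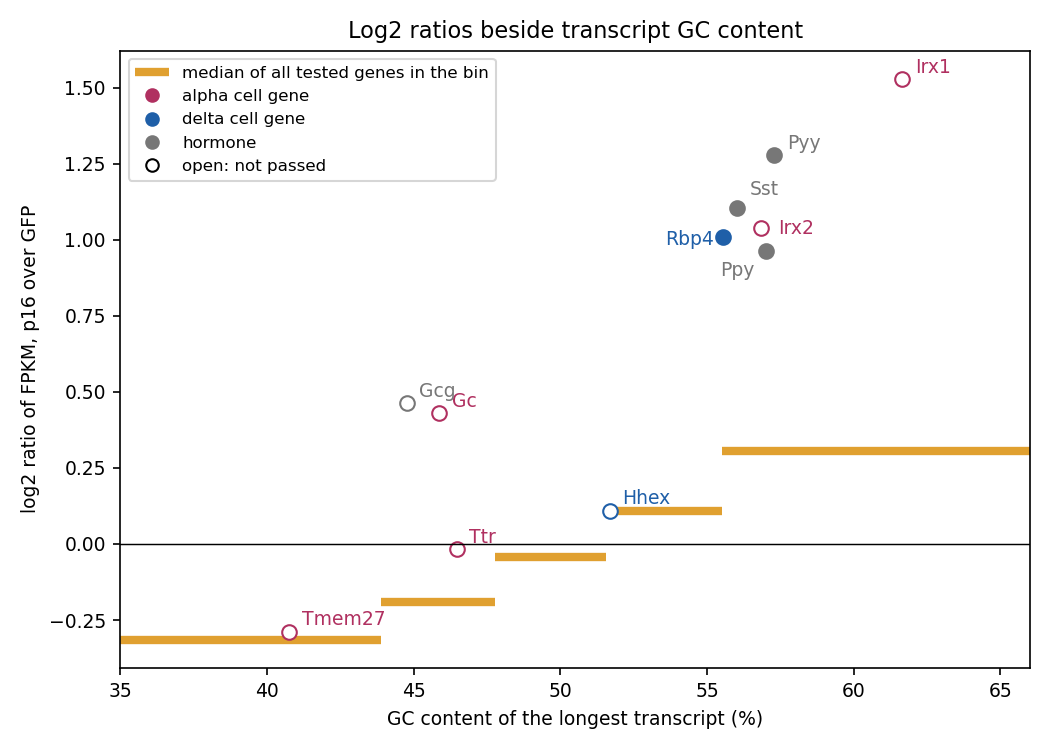
Log2 ratio of FPKM, p16 over GFP, against the GC content of the longest transcript in percent, for the alpha and delta cell genes, the tested hormones; bars give the median log2 ratio of all tested genes in each of 5 bins of equal size, with the outermost bins trimmed at the edges of the axis. The bars climb from -0.32 to 0.31, and Hhex and Tmem27 lie on or near theirs while Rbp4, Sst, Pyy, Ppy, Irx1 and Irx2 lie well above that of the highest bin.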

How the data were processed

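Total RNA of sorted cells was sequenced in 5 samples, 3 with p16 and GFP and 2 with GFP alone. Per the submitters' processing notes, TopHat2, Cuffnorm and Cuffdiff were used on mm9; their versions, the annotation and the strand setting were not given in the sources used here. Each row deposited by the authors has an FPKM value per group, a p-value, a q-value and a test score. The authors' q-values, as deposited, match a Benjamini-Hochberg adjustment of 13264 tested genes to within 5.23e-07, and their smallest p-value is 5e-05. The labels' design text counts 3 and 2 mice, but does not say whether each sample is 1 mouse, so the p-values may reflect technical spread. With no values per sample, no test over samples could be fitted, and the authors' q-values below 0.05 were used as calls.

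Log2 ratios were recomputed from FPKM without a pseudocount. The deposited test score was not turned into an error, because the authors' p-values were a median 0.693 times the normal p of the score. The FPKM values of the authors are not counts, so no count model was used. Starts were counted from 0 in the table and 1 was added; the span then equals the RefSeq gene length for 5 of 7 genes. Transcript GC content came from GENCODE M21 (99.0% of tested genes matched), and upstream sequence from RefSeq on GRCm38.p6, for 5 of 7 genes. Named genes were the set, 5 hormones, the Iroquois family, called members of each fixed list (up to 4, or its most abundant tested gene where none was called) and the 3 genes closest to a called gene of the set; some genes that this rule names are not reported here. Ghsr, Lepr, Crhr2, Nrn1, Dpp4, G6pc2, Stra6, Alb, Krt7, Cftr, Cd79a, Acta2, Lum and the neighbours within 20 kb were chosen as names with their values in view. The comparisons with the 500 genes nearest in level and with GC bins were also chosen after the data were seen. The members and lists were chosen with earlier results of these data known. The adjustment step was tested on simulated data. Scripts ran in Python 3.11.15 with scipy 1.17.1, pandas 2.3.3, numpy 2.4.6 and, for figures, matplotlib 3.10.9.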

Additional observations from a re-analysis of the deposited data

How the results depend on the processing

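No paired analysis was possible because the table holds 1 value per group, and for the same reason no sample could be left out. The count of called genes was 1 of 7 in the set at q-values below 0.01, 0.05 and 0.1, beside 2.78%, 5.42% and 7.73% of all tested genes. It was also 1 when p was adjusted again over genes with a mean of at least 1 or 5 FPKM, beside 5.05% and 4.63%. Irx1 and Irx2, at means of 0.256 and 0.766 FPKM, fell below both filters. Hhex, at 1.77 FPKM, fell below the filter of 5 FPKM, so these genes were not judged again there. Rbp4 had an adjusted p of 0.00738 and 0.00778 under those filters in the authors' deposited table readjusted with Benjamini-Hochberg. The 3 called hormones became 2 at a q-value below 0.01, where Ppy was lost. The log2 ratio of Ttr turned to 0.00062 when scaled to the median ratio, to 0.0639 when scaled to the total without genes over 1000 FPKM, and to 0.17 less the median of its GC bin; that of Tmem27 turned to 0.0271 less the median of its GC bin, a setting chosen after seeing the data. The other 79 alternative log2 ratios of the set and the hormones kept their direction, and the number of called genes among the other alpha and delta cell genes was 1 under each threshold and filter. A pseudocount shrank the ratios of low genes: with 1 FPKM added, the log2 ratio of Irx1 was 0.29 and of Irx2 0.44, beside 0.995 for Rbp4. Depth is unknown, which limits what can be said of Irx1, Irx2 and Hhex.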
